A study of Caenorhabditis elegans with 2 samples.

Results

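The Sm protein genes snr-1 to snr-7 of Caenorhabditis elegans encode the ring of small proteins at the core of the spliceosomal ribonucleoproteins. They were examined for binding of the tagged protein C38D4.7 by chromatin immunoprecipitation and sequencing (ChIP-seq). The 7 members were taken by name from the WBcel235 annotation (assembly ce11), which holds 19983 protein-coding genes, and 385 of those had a peak of the authors' optimal list in the promoter. The family was chosen by earlier results of these same lists, in which peaks at snr-1 and snr-4 were already known. The ranks and scores at the members are therefore a description and carry no test.

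Sm proteins assemble as a ring on a short uridine-rich site of the U1, U2, U4 and U5 small nuclear RNAs (snRNAs), with help from the SMN complex in the cytoplasm. The ring stays on the RNA in the nucleus, where these particles remove introns. In C. elegans the same proteins also bind the spliced leader RNAs used in trans-splicing, and they are known for a role in germ granules of the embryo. RefSeq gives snr-1 as Sm D3, snr-2 as Sm B, snr-3 as Sm D1, snr-4 as Sm D2, snr-5 as Sm F, snr-6 as Sm E and snr-7 as Sm G.

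The samples were 2 biological replicates of 1 group, whole late embryos of strain OP708, aged 4 hours and synchronised by egg bleaching. The strain carries unc-119(tm4063) and the insertion wgIs708, which supplies unc-119(+) and C38D4.7 fused to TY1, EGFP and 3xFLAG, and GFP was the target of the antibody. C38D4.7 encodes a C2H2-type domain-containing protein in RefSeq. Each sample pools whole embryos of both sexes, so cell types cannot be told apart. No list from an untagged strain was used here, and whether the peaks depend on the tagged protein was not tested.

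Each deposited list ranks regions by the authors' score, a positive number of unstated scaling that was used only within its own list. It also gives each region a summit, a single position within it. How the summits were placed was not given in the sources used here. The optimal list held 649 lines, all of them also the top lines of the list made from both replicates together (the pooled list). That list and the one of replicate 1 held 30000 candidates each, and the one of replicate 2 held 26661. By the authors' naming these are peaks and background together. Read depth is unknown, since the lists hold no counts. Promoters reached from 1000 bp before the gene start to 200 bp after it, and a gene counted as called when a summit lay there.

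The sequences the results turn on are those at the optimal peaks of the snr-1 and snr-4 promoters. They are given on the plus strand of WBcel235 from RefSeq, the first with a short letter run of the kind known as an Sm site (ATTTTTG, RNA-like strand only) in capitals. In the second the 21 bases centred on the summit are in capitals.

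snRNA gene C52E4.8 upstream of snr-4, chrV:11980118-11980261: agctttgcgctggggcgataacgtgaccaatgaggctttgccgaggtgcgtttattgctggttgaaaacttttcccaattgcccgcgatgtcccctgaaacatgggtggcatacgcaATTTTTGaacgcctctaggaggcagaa

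Optimal region upstream of snr-1, chrIV:17087512-17087746: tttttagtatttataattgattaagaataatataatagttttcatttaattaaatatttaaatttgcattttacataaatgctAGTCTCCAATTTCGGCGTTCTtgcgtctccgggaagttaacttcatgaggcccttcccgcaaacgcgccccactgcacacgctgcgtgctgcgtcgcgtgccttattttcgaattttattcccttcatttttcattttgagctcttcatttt

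The family divided into 3 genes with high-ranked candidates, 2 with low-ranked ones and 2 with none. Optimal summits lay in the promoters of 2 of 7 Sm genes, snr-1 and snr-4, and 1.93% of all protein-coding genes had one. Because the family was put forward with these 2 peaks known, nothing is read from that difference. Pooled candidates lay at 5 of 7 promoters (snr-1, snr-2, snr-4, snr-6 and snr-7), where 33.6% of all genes had one. In the replicate 1 list 4 of 7 had a candidate beside 33.9% of all genes, and in the replicate 2 list 5 of 7 beside 30.7%. Both replicate lists held one at snr-1, snr-4, snr-6 and snr-7, beside 20.0% of all genes. When each replicate list was shortened to its 649 highest candidates, snr-1 alone was called in replicate 1 (1.89% of all genes) and snr-1, snr-4 and snr-6 in replicate 2 (1.76% of all genes).

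**Figure D1:**
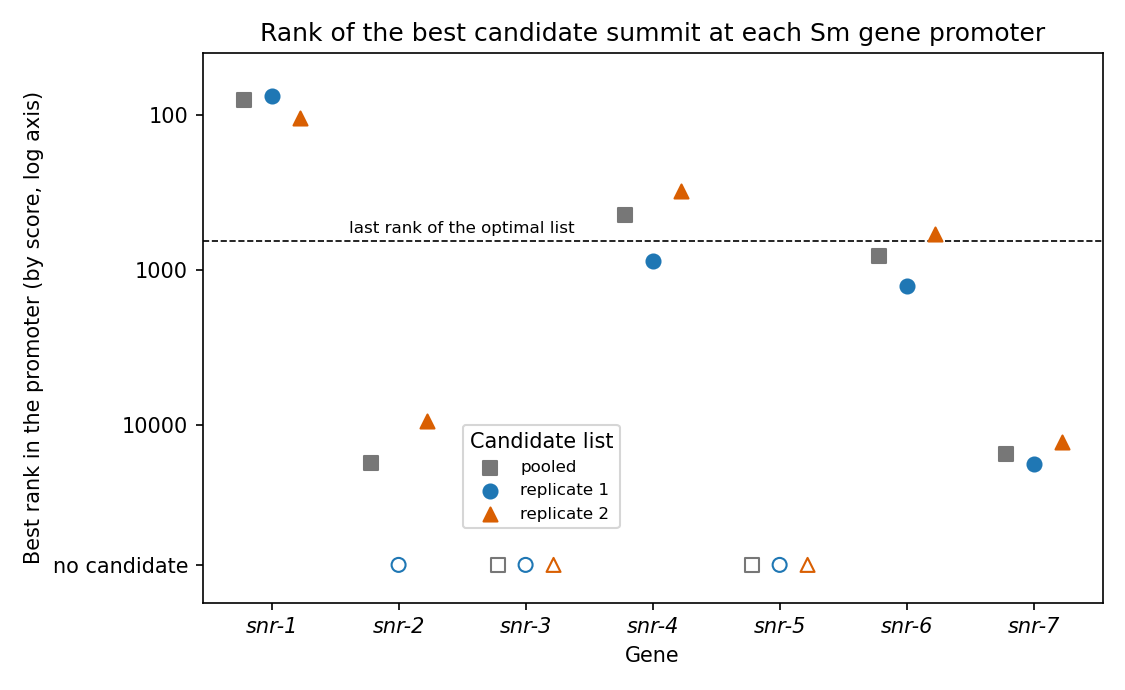
Rank of the highest-scoring candidate summit in the promoter of each Sm gene (y axis, log scale, rank 1 at the top) in the pooled list (squares), replicate 1 (circles) and replicate 2 (triangles), with open symbols for no candidate and a dashed line at rank 649, where the optimal list ends. The 3 points of snr-1 lie between ranks 76 and 105, those of snr-4 and snr-6 lie on both sides of the line, and snr-3 and snr-5 have no candidate in any list.

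snr-1 (Y116A8C.42, chromosome IV, 17088049 to 17088946, plus strand) encodes Sm D3, a partner of Sm B in the ring. Its promoter held the highest-ranked peak of the family, at rank 80 of the optimal and pooled lists with a score of 645.4, where the median score of the optimal list was 269.3. The rank was 76 in replicate 1 (score 453.4) and 105 in replicate 2 (score 192.8). In all 4 lists the summit was the same base, position 17087605, which is 444 bp upstream of the gene start. Among the 381 genes with an optimal summit and a candidate in both replicates, 18 had their best replicate summits at the same base (4.72%) and the median distance was 22 bp (quartiles 9 and 44 bp). These are counts of genes, snr-1 included, and genes that share a summit were each counted.

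The snr-1 summit lies between 2 genes that point away from each other. The start of snx-13, which encodes a sorting nexin and lies on the minus strand, is 611 bp from that of snr-1, and the summit was 167 bp upstream of snx-13, nearer to it than to snr-1. Both genes share the call, and the lists cannot assign the peak to either. No small RNA gene lay within 200 bp of the summit, nor within 500 bp. The optimal region of 235 bp was narrower than the usual 470 bp, with 64 of 649 optimal lines this narrow or narrower, and the summit was its base 94. In replicate 1 the region was also 235 bp wide. In replicate 2 it was 460 bp wide, as were all replicate 2 regions with a summit within 3000 bp of an Sm gene. All 200 of the 36-base words in the optimal region occurred once in the assembly. In the region printed above, the 83 bases left of the capitals hold 12.0% G and C and the first 83 bases right of them 63.9%. All 131 bases right of the capitals hold 49.6%. The summit thus lies between an A- and T-rich stretch and a G- and C-rich one that does not fill the rest of the region.

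snr-4 (C52E4.3, chromosome V, 11978508 to 11979723, minus strand) encodes Sm D2, which pairs with Sm D1. Its optimal peak ranked 444 with a score of 223.3, and its −log10 q of 3.06 was the top value, shared by 581 of 649 optimal lines. The summit at position 11980245 was 522 bp upstream of snr-4, the nearest protein-coding start, and it lay inside the snRNA gene C52E4.8, at base 128 of its 144 bases. The unclassified noncoding gene C52E4.14 (11979959 to 11980101, plus strand) lay 144 bp from the summit. Both noncoding genes are on the plus strand, opposite to snr-4.

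The best-ranked summits of the 2 replicates lay on opposite sides of this snRNA gene. Replicate 1 had 1 candidate, at rank 878 (score 111.0), with its summit 17 bp past the 3′ end. Replicate 2 had 2 overlapping candidates, one at rank 312 (score 96.3) with its summit 1 bp before the 5′ end, and one at rank 667 (score 68.1) with its summit 57 bp past the 3′ end. The pooled summit, 4 bases past the Sm-site letters, thus lay where no replicate summit did. The best replicate summits were 161 bp apart, and those of snr-1 0 bp. The rank 667 summit of replicate 2 lay closer to the replicate 1 summit, on the same side of the gene.

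**Figure D2:**
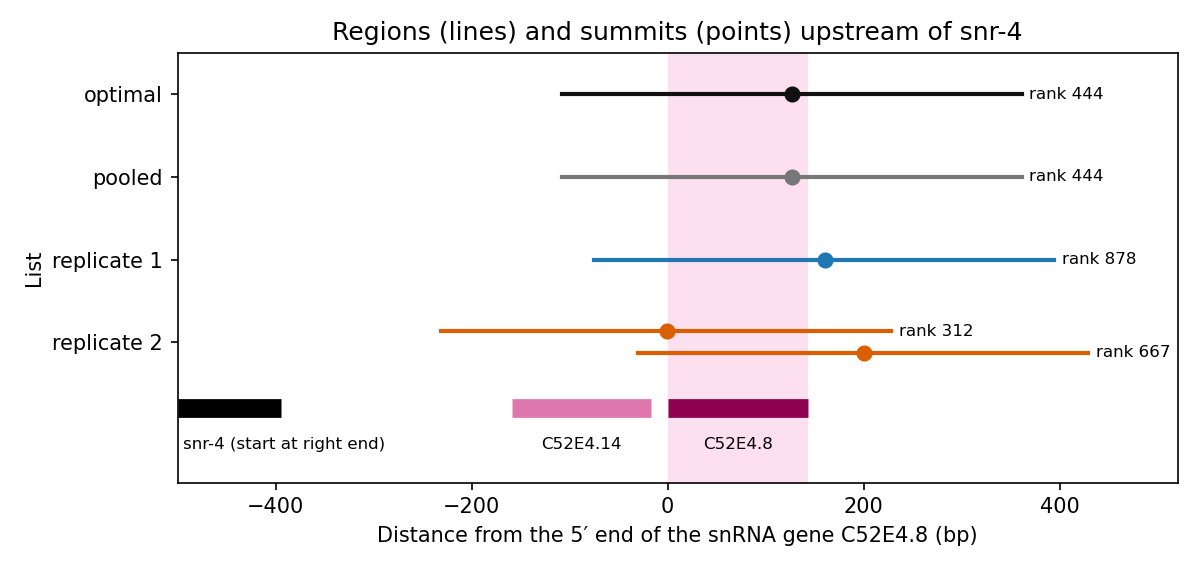
Deposited regions (lines) and their summits (points) upstream of snr-4 in each list, by distance in bp from the 5′ end of the snRNA gene C52E4.8 (shaded), with the genes drawn as bars below. The optimal and pooled summit of rank 444 is inside the snRNA gene, whereas the replicate 1 summit (rank 878) and both replicate 2 summits (ranks 312 and 667) lie outside it.

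The snRNA gene is repeated elsewhere on the chromosome. Of the 109 words of 36 bases in C52E4.8, 0 occurred once in the assembly, and the most frequent had 5 copies, whereas all 256 words of the optimal region that do not touch the gene occurred once. T11F9.15 (V, 11478148 to 11478291) was identical to it over all 144 bases, K03B8.10 and T11F9.16 were 99.3% identical and F10D2.13 was 96.5% identical. None of these 4 copies had a candidate within 200 bp in the optimal, pooled, replicate 1 or replicate 2 list. The treatment of reads that match several places was not given in the sources used here, and its part in the position of the summits was not tested. All 5 genes hold the Sm-site letters, which start at base 118 of C52E4.8 and occur there 1 time. These letters were in 72 of the 129 annotated snRNA genes (55.8%), and 12 of the 129 lay within 200 bp of an optimal summit (9.30%). That distance was taken from either end of the gene, unlike the promoter window. The share of all genes within it was not counted, so nothing is read from the 9.30%.

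snr-6 (Y49E10.15, chromosome III, 12429172 to 12429629, minus strand) encodes Sm E and fell outside the optimal list. Its best pooled candidate ranked 812 with a score of 165.8, where the optimal list ended at rank 649 with 180.1 and the next pooled line had 180.0. The pooled and replicate 1 summits were the same base, 298 bp upstream of the gene start, with rank 1279 in replicate 1 (score 99.0). In replicate 2 the best summit was 110 bp further out, 408 bp upstream, at rank 592 (score 70.3), and a weaker one lay 614 bp upstream at rank 20905. The pooled list also held a weaker summit 518 bp upstream, at rank 22406. The nearest start was that of snr-6, and Y49E10.16 on the other strand started 880 bp from it. No small RNA gene lay within 200 bp of the best pooled summit.

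At snr-2 and snr-7 the candidates were low in every list that held one. snr-2 (W08E3.1, chromosome I, 13339397 to 13340224, plus strand) encodes Sm B. Its pooled candidate ranked 17553, with a score of 65.1, where the lowest of the pooled list was 49.1, and a −log10 q of 0.12. The summit was 397 bp upstream of snr-2 and 69 bp upstream of the divergent gene W08E3.4, a major sperm protein gene in RefSeq. Replicate 2 had candidates there at ranks 9421 and 16871, 414 and 200 bp upstream, and replicate 1 had none in the promoter.

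snr-7 (Y71F9B.4, chromosome I, 2727014 to 2727382, plus strand) encodes Sm G. Its pooled candidate ranked 15354 (score 68.8, −log10 q 0.14) with the summit 775 bp upstream. The candidate ranked 17859 in replicate 1, 694 bp upstream, and 12891 in replicate 2, 785 bp upstream. All 3 summits lay inside Y71F9B.6, a divergent gene that starts 290 bp from snr-7. Higher-ranked candidates lay downstream of the short snr-7 gene, outside the promoter, with the best at rank 3133 in the pooled list, 1932 bp from the gene start.

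snr-3 and snr-5 had no candidate summit in the promoter in any of the 4 lists. snr-3 (T28D9.10, chromosome II, 6488830 to 6489761, minus strand) encodes Sm D1 and shares its upstream region with rsp-5, an SR splicing factor gene that starts 404 bp away on the other strand. An optimal peak lay beyond rsp-5, 2320 bp upstream of snr-3, at rank 354 with a score of 258.2 (rank 541 in replicate 1 and 259 in replicate 2). Its summit at position 6492081 was inside the noncoding gene T28D9.13 and 88 bp upstream of T28D9.11, so it belongs to other promoters by the rule used. The closest pooled candidate to snr-3 was inside the gene, 668 bp past its start, at rank 18805. snr-5 (ZK652.1, chromosome III, 7862070 to 7862574, plus strand) encodes Sm F. It had no pooled or replicate 1 candidate within 3000 bp of the gene, and 1 replicate 2 candidate, 1768 bp upstream at rank 18713.

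**Figure D3:**
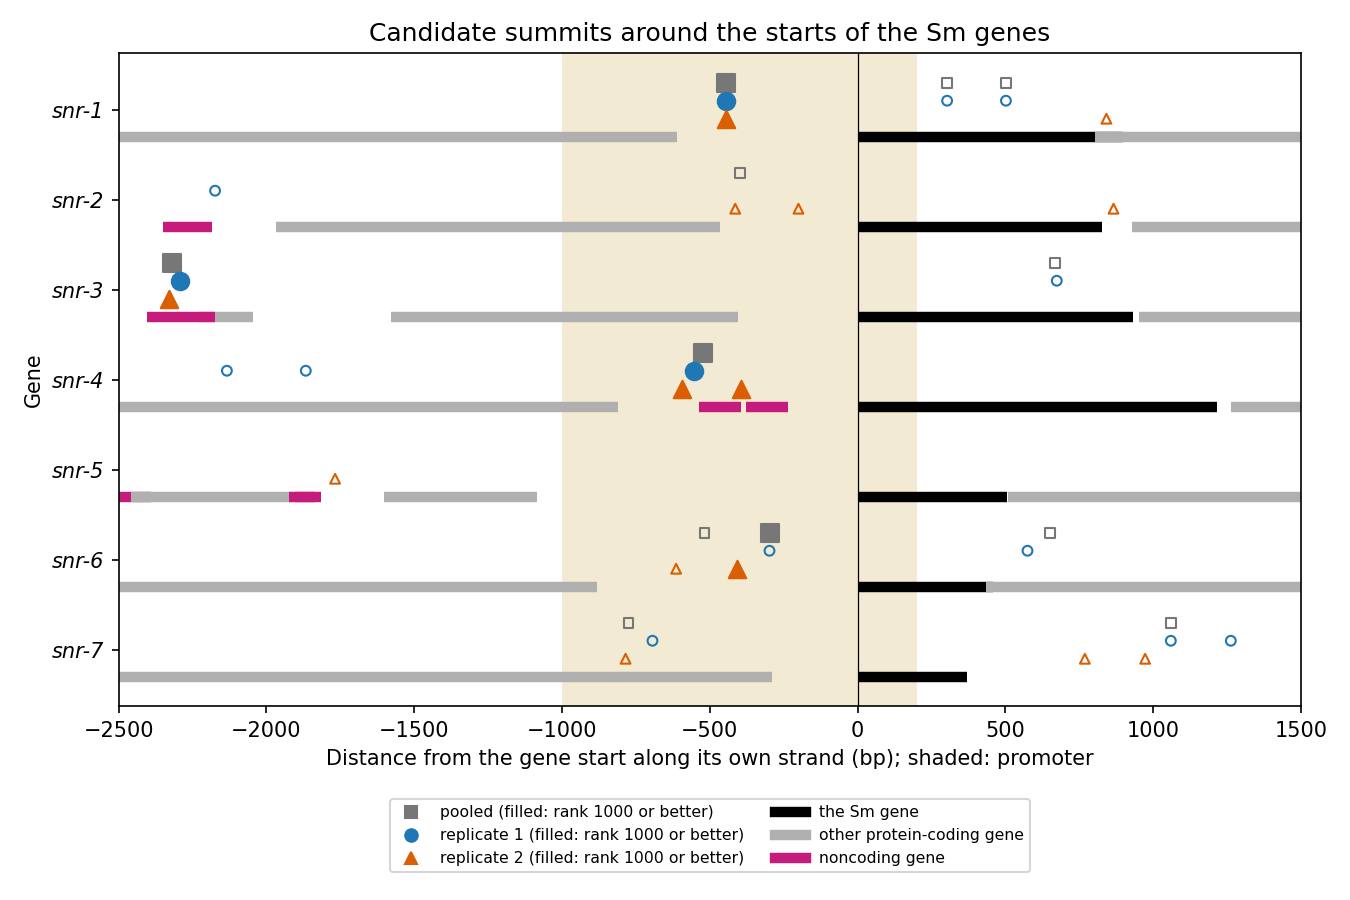
Candidate summits around each Sm gene by distance in bp from its start along its own strand, in the pooled list (squares), replicate 1 (circles) and replicate 2 (triangles), with large filled symbols for rank 1000 or better, genes as bars and the promoter shaded. The large snr-1 symbols stand in 1 column 444 bp upstream, the large snr-4 symbols stand over and beside 2 noncoding genes, and the large symbols of the snr-3 row lie 2291 to 2330 bp upstream, outside the promoter.

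Set among all protein-coding genes, the 5 Sm genes with a pooled candidate were spread over much of the range. Of all genes, 0.210% had a best pooled rank as high as that of snr-1 or higher, 1.30% as high as snr-4, 2.31% as high as snr-6, 20.8% as high as snr-7 and 22.9% as high as snr-2. With the 2 Sm genes without a candidate placed last, the median best rank of the family was 15354. Over all protein-coding genes the median gene had no candidate, as 13267 of 19983 lacked one.

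**Figure D4:**
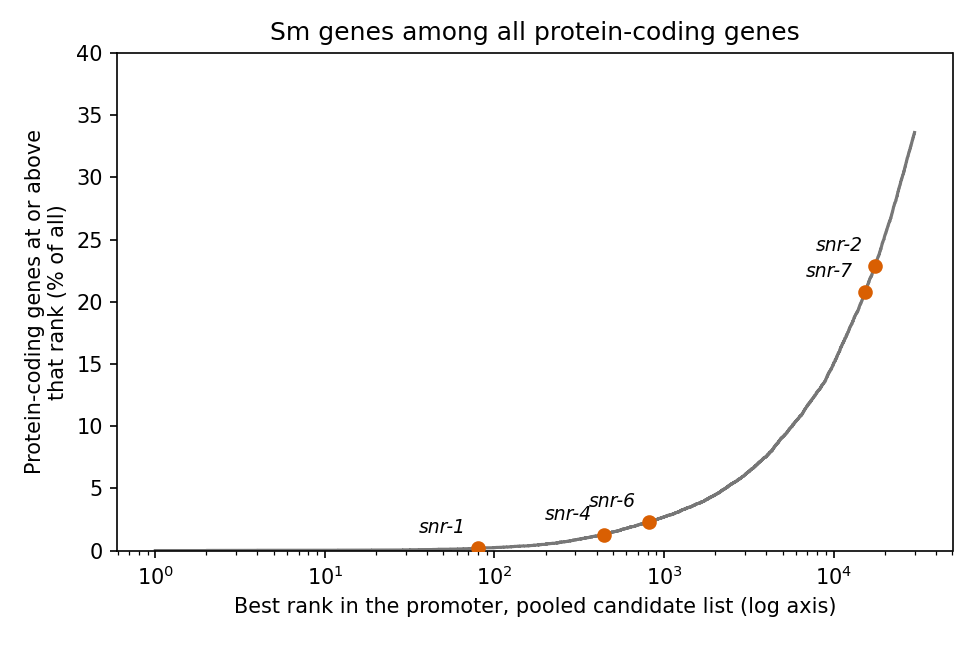
Share of all 19983 protein-coding genes (y axis, percent) whose best pooled candidate in the promoter has a given rank or a higher one (x axis, log scale), with the 5 Sm genes that had a candidate marked on the line. snr-1, snr-4 and snr-6 lie below 3% of genes and snr-7 and snr-2 above 20%, and the line ends at 33.6% because the other genes had no candidate.

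The bound genes most like snr-1 and snr-4 were taken as those nearest in optimal rank, out of 385. snr-1 stood 41st in this order, level with snx-13. Above it came C41C4.9 and chst-1, a carbohydrate sulfotransferase gene, which share a summit at rank 77, and below it E04F6.6 and pcrg-1 at rank 82. snr-4 stood 260th, between T10B5.3 and the kinetochore gene knl-3, which share a summit at rank 442, and rsl-24D1, a ribosome biogenesis gene, at rank 447, followed by B0511.17 at rank 448. Likeness here is the difference in rank alone, which ran from 2 to 4 for these genes other than snx-13.

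Other genes of splicing were counted from 4 lists, of which 56 of 59 symbols matched the annotation. Optimal summits lay in the promoters of 2 of the 56, mog-5 and teg-1, beside 1.93% of all genes, and pooled candidates at 37 of 56 (66.1%), beside 33.6%. Fewer, 23 of the 56, had a candidate in both replicate lists, beside 20.0% of all genes. mog-5, a DEAH-box helicase of the late splicing steps, had its summit 152 bp upstream of the start at rank 394 (508 in replicate 1 and 275 in replicate 2). teg-1, the homologue of a U5 particle protein, had its summit 195 bp upstream at rank 416 (394 and 627). Both ranks are close to that of snr-4, and neither summit had a small RNA gene within 200 bp. Of the 37 genes for snRNP and core spliceosome proteins 24 had a pooled candidate, and after those 2 the highest were prp-40 at rank 2849 and ddx-23 at rank 3326.

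None of the listed 3 Sm assembly genes, 8 LSm genes and 8 SR splicing factor genes had an optimal summit (1.93% of all genes had one). Genes outside these lists were not looked up. Pooled candidates of the listed genes are counted here beside the 33.6% of all genes with one. All 3 listed genes of Sm assembly had a pooled candidate in the promoter. They were smi-1, the Gemin2 gene, at rank 3634, smn-1, the core of the SMN complex, at rank 5740 and prmt-5, which methylates Sm proteins in other animals, at rank 7222. The smn-1 summit was nearer to the start of klp-16 and lay within 200 bp of mir-4932, and the smi-1 summit lay within 200 bp of the noncoding gene Y39A3CR.10. Of the 8 LSm genes, whose proteins form the related ring of U6 and of mRNA decay, 4 had a pooled candidate, led by lsm-6 at rank 1669 and lsm-7 at rank 7412, and all 4 ranked between snr-6 and snr-7. Of the 8 SR splicing factor genes 6 had a pooled candidate, led by rsp-1 and rsp-2, which share a summit at rank 2577. Both replicate lists held a candidate at 3 of 3 Sm assembly genes, 4 of 8 LSm genes and 2 of 8 SR genes. Of all protein-coding genes, 20.0% had one in both.

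Letter runs that earlier work on these lists found to be frequent at optimal summits were searched for on both strands at the Sm genes. The runs were CCGCAC, the overlapping CGCACA, then CCGCCC, then GTTCGA with the overlapping CGAACC, whose other strand reads GGTTCG. In the 300 bases from 250 before to 50 after the start, 0 of 7 Sm genes held any of the 5, and 26.3% of 19971 nuclear protein-coding genes did. The snr-1 and snr-4 summits lie outside that window. In windows of 101 bases centred on the summit, at least 1 of the 5 runs was in 41.9% of the 649 optimal windows. Neither the snr-1 nor the snr-4 window held any of the 5, which says only that these letters are not in those 101 bases.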

How the data were processed

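ChIP-seq of GFP-tagged C38D4.7 was given as 4 deposited lists of regions on ce11. Each replicate and both together were searched for candidates against 1 control alignment, per the read-me texts deposited by the authors, who derived the optimal list from them with the irreproducible discovery rate (IDR), which compares ranks between replicates. Caller, aligner and thresholds were not given in the sources used here. The authors' score (column 7 of each deposited line) ranked regions within a list. The deposited −log10 q-value was only described. Summits are the region start plus the deposited offset, written 1-based.

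Gene records and sequence came from RefSeq WBcel235, the same assembly as ce11. All protein-coding genes entered each count. A small RNA gene was a tRNA, snRNA, snoRNA, rRNA, miRNA, scRNA or piRNA gene or another noncoding gene of at most 300 bp, within 200 bp of a summit. Sequence identity came from global alignments (Biopython 1.88), and copies were snRNA genes at least 80% identical. Words of 36 bases, a length chosen without knowing the read length, were counted on both strands. The sequence at the snr-6 candidate is not reported here.

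The members, the gene lists, the letter runs and the alternatives were chosen with earlier results of these data known. The Sm-site letters, the snRNA copies and the word counts were added after seeing the peaks. Named genes were the members, their neighbours at optimal summits, the 2 bound genes on either side in rank, and in each list up to 4 with an optimal summit and up to 2 others by pooled rank. prmt-5, the copies of the snRNA gene and the neighbours of other members and of the assembly genes were named beyond this rule, after their values were seen. The promoter counts were checked on 200 planted summits. Alternatives were other promoter windows, region overlap, transcript starts, the higher-scoring part of the optimal list and each replicate alone.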

Additional observations from a re-analysis of the deposited data

How the results depend on the processing

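With a promoter of 500 bp before and 100 bp after the start, the number of Sm genes with an optimal summit fell from 2 to 1, as the snr-4 summit lies 522 bp upstream. The number with a pooled candidate went from 5 to 3 (snr-1, snr-2 and snr-6), and that with a candidate in both replicates from 4 to 2 (snr-1 and snr-6). The 324 highest-scoring optimal peaks left 1 gene, snr-1. Leaving out a replicate gave 1 gene (without replicate 2: snr-1) to 3 genes (without replicate 1: snr-1, snr-4 and snr-6) among the 649 highest candidates of the other. Any candidate was held by 4 genes without replicate 2 and by 5 genes without replicate 1. The same genes were counted with 2000 bp upstream of the start, with region overlap of at least 1 bp and with every transcript start. With the first 10000 candidates of each replicate list, 3 genes were in both. Shares of all genes were counted only for the main promoter, with the full lists and with the 649 highest candidates. A narrower promoter or a shorter list can lower the count for any set of genes. Nothing about the Sm genes in particular is therefore read from these falls. A small RNA gene was near 1 of the 2 optimal summits within 100, 200 or 500 bp. snr-1 was called in every setting run. The lists hold no read counts, so depth sets no stated limit, and 2 replicates give no error on a rank.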
